A study of Mus musculus with 8 samples.

Results

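Imprinted genes were followed in whole mouse embryos with and without an amino acid substitution in Smoothened. The set was a list of 42 symbols of known mouse imprinted genes, found by symbol among the 41709 symbols of the deposited table, and all 42 were present. The list names genes by their imprinting and not by a measured value, but it was chosen with earlier results of these data known. Of the 42 genes, 39 reached 1 TPM in at least 4 of the 8 embryos and entered the test, among 13596 tested genes in all. TPM, reads divided by gene length and scaled to a fixed total in each library, lets levels be compared between genes.

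RNA was taken from 4 embryos homozygous for the K399A substitution in Smo (SmoK399A/K399A, called mutant) and 4 Smo+/+ embryos (WT), all at embryonic day 9.5. Both genotypes came from crosses of SmoK399A/+ mothers and fathers over several litters, the labels tie no embryo to a litter, and no other allele or agent is named. Smo encodes Smoothened, the membrane protein that passes the Hedgehog signal from Patched towards the GLI transcription factors. Mutant and WT embryos were compared to learn how expression differs with this substitution, and the imprinted genes are described here within that comparison.

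An imprinted gene is used mainly from the copy inherited from either the mother or the father, because a control region in its neighbourhood keeps the DNA methylation set in egg or sperm. Such genes lie in clusters, in which a long non-coding RNA or an insulator often sets which coding genes are silent on a chromosome. Several of them govern growth of the embryo and placenta: Igf2 is the main growth factor of the embryo, and Igf2r, Grb10, Cdkn1c and H19 restrain growth. The table gives the summed transcript of both copies, so which parental copy was used was not measured, and every statement on parental copies is background.

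Depth, recovered from the steps between TPM values, was 59.05 to 60.42 M reads (M, mega) in mutants and 59.06 to 59.69 M in WT. Smo was at 126 to 156 TPM in mutants and 132 to 147 TPM in WT, and a substitution need not alter the level of its transcript, so this level is no check of the genotypes. Whole embryos hold many cell types, and fewer cells of a type cannot be told apart from less RNA per cell. Of 24 listed markers of yolk sac endoderm, the summed level was 1658, 1031, 310 and 221 TPM in mutants 1 to 4, against 59.6, 85.0, 346 and 59.0 TPM in WT 1 to 4. Of 17 markers of trophoblast and decidua, the sum was 68.2, 333, 46.0 and 17.5 TPM in mutants 1 to 4, against 27.9, 8.49, 26.8 and 8.49 TPM in WT 1 to 4, and Psg18 was listed at 0 in every embryo. All 22 tested yolk sac markers and all 6 tested trophoblast and decidua markers were higher in mutants on average, none with an adjusted p under 0.05. The libraries of mutants 3 and 4 stood apart in summed host transcripts of small nucleolar RNAs. The 11 such genes summed to 809, 965, 428 and 403 TPM in mutants 1 to 4, against 850 to 1036 TPM in WT. All 11 had a log2 fold change below 0, none with an adjusted p under 0.05. Snhg9 and Epb41l4aos, with the smallest p among them, were lower in all 4 mutants than in any WT embryo. Snhg9 was at 8.2, 6.6, 5.2 and 5.2 TPM in mutants 1 to 4, against 10.6 to 15.1 TPM in WT. Epb41l4aos was at 94, 90, 73 and 68 TPM in mutants 1 to 4, against 112 to 132.5 TPM in WT.

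The 42 genes together held 1.42, 1.07, 0.995 and 1.05% of all TPM in mutants 1 to 4, against 1.07, 1.01, 1.01 and 1.12% in WT 1 to 4. Their mean levels over the 8 embryos ran from 0.149 TPM for Kcnq1ot1 to 4459 TPM for H19: 3 genes (H19, Mest and Igf2) averaged at least 1000 TPM, 10 lay between 100 and 1000, 14 between 10 and 100, 12 between 1 and 10, and Kcnq1ot1, Ascl2 and Slc22a3 lay under 1. H19 ranked 10th to 27th among all symbols in mutants and 16th to 22nd in WT, and Igf2 ranked 74th to 118th in mutants and 120th to 139th in WT.

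None of the 39 tested imprinted genes passed limma's test at an adjusted p under 0.05, and 0.00% of all tested genes did. The smallest adjusted p among them was 0.281. An unadjusted p under 0.05 was reached by 8 imprinted genes higher in mutants (20.5%), against 5.55% of all tested genes, and by 3 lower in mutants (7.69%), against 8.0% of all. Over both directions 13.5% of all tested genes reached it. The 8 were Igf2, Phlda2, Slc22a18, Dio3, Peg3, Peg10, Igf2r and Slc38a4, and the 3 were Tssc4, Mkrn3 and Nnat. When a yolk sac score (the mean log2 level of the yolk sac markers) was added to the fit, Igf2r, Slc38a4, Tssc4, Mkrn3 and Nnat were the 5 of these 11 that still reached it. The score was 5.0, 4.5, 3.1 and 2.5 in mutants 1 to 4, against 1.1, 1.5, 3.1 and 1.2 in WT 1 to 4. Being higher in mutants on average, it cannot be fully separated from genotype in this fit. With it, the log2 fold change of Igf2 was 0.34 (0.38 without it), of Phlda2 0.82 (1.16) and of Dio3 0.44 (0.38). That of Slc22a18 was 0.13 (0.58), of Peg3 0.26 (0.33) and of Peg10 0.07 (0.24). The split of genes at an unadjusted p under 0.05 turned with the setting: 2 higher and 8 lower with that score in the fit, 5 higher and 8 lower with array weights, and 5 higher and 12 lower without mutants 1 and 2.

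Values of the mutants and the WT embryos did not overlap for 4 genes higher in mutants (10.3% of the 39, against 3.63% of all tested genes) and 2 lower (5.13%, against 3.82%). These 6 had the smallest exact permutation p that 4 against 4 embryos allow, 0.0286, and were the 6 that reached an unadjusted p under 0.05 by that test, against 7.46% of all genes. Adjusted over all genes, the permutation test called 0 imprinted genes and 0.00% of all. The median log2 fold change of the 39 genes was 0.02, against -0.04 over all tested genes, and 22 were above 0 (56.4%, against 37.7% of all). Without mutant 1 that median was -0.07, against -0.06 over all tested genes, with 14 above 0. Without mutants 1 and 2, the embryos richest in yolk sac markers, limma called 3 imprinted genes higher in mutants (2.07% of all tested genes) and 10 lower (22.7% of all), 13 of 39 beside 24.8% of all genes.

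**Figure D1:**
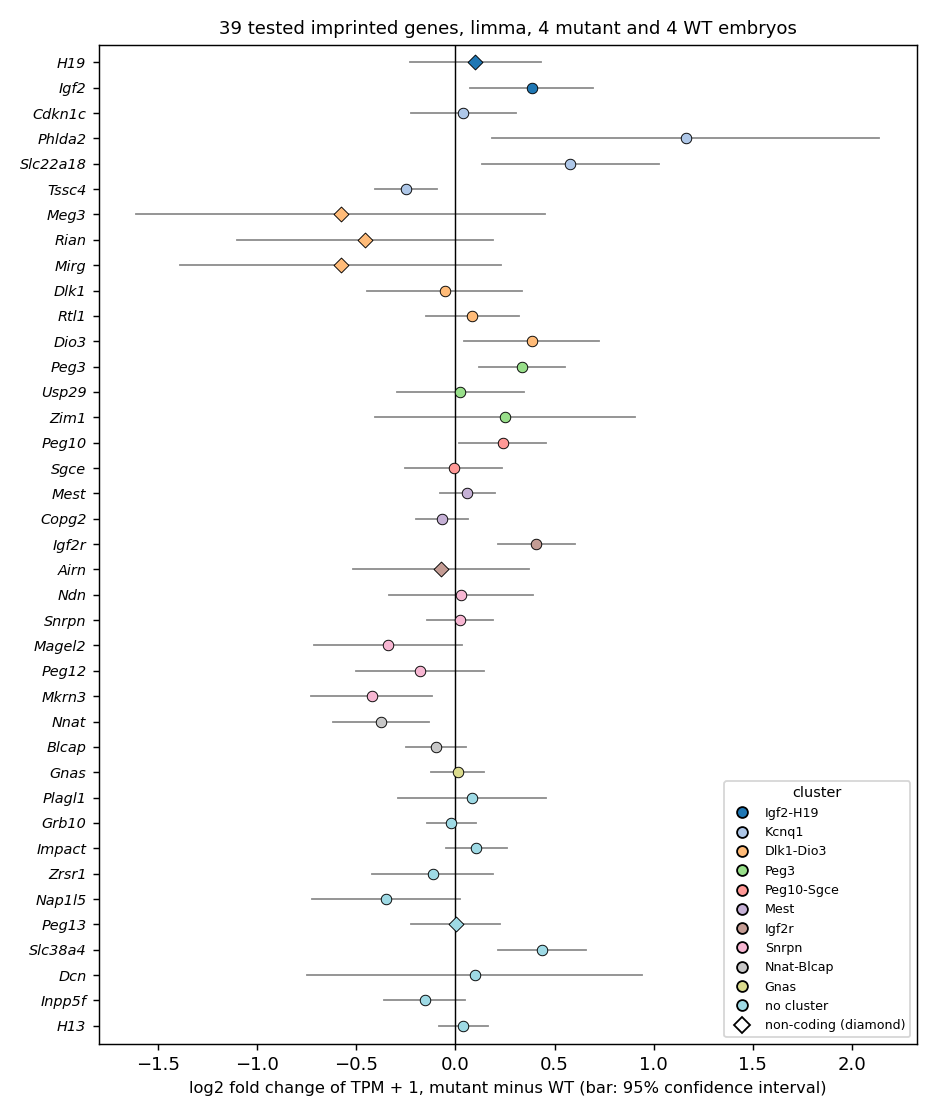
Log2 fold change of TPM + 1 (x axis, mutant minus WT) of the 39 tested imprinted genes (rows, coloured by cluster, diamonds for non-coding RNAs), with bars for limma's 95% confidence interval. Igf2r, Slc38a4 and Peg3 lie above 0 with intervals clear of 0, Nnat, Mkrn3 and Tssc4 lie below it, and Meg3, Phlda2 and Dcn have the widest intervals.

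The pair H19 and Igf2 lies on chromosome 7 (build GRCm38, clusters placed by GENCODE M21) within 91.3 kb. Igf2 is used from the father's copy and H19, a non-coding RNA, from the mother's, through enhancers that they share. Igf2 (chromosome 7, 142650766 to 142666816) was at 1781, 1077, 1216 and 1326 TPM in mutants 1 to 4, against 1024, 988, 932 and 1133 TPM in WT 1 to 4. Mutant 1 was far above the others, and mutant 2 lay below WT 4, so the groups overlapped. The difference on the log2(TPM + 1) scale was 0.38 ± 0.14 (standard error), with a 95% confidence interval of 0.07 to 0.69 (limma adjusted p = 0.317; exact permutation p = 0.0571). It was 0.24 without mutant 1, its lowest value in any setting tried.

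H19 (chromosome 7, 142575529 to 142578143) was at 6328, 4373, 3793 and 4121 TPM in mutants 1 to 4, against 4403, 3831, 4164 and 4655 TPM in WT 1 to 4. The mutants spanned the whole range of WT and beyond on both sides. Its log2 fold change was 0.10 ± 0.15 (standard error; limma adjusted p = 0.758), and -0.06 without mutant 1, so its direction rested on that embryo. The ratio of H19 to Igf2 TPM was 3.55, 4.06, 3.12 and 3.11 in mutants 1 to 4, against 4.30, 3.88, 4.47 and 4.11 in WT 1 to 4. It was lowest in mutants 3 and 4, while mutant 2 lay within the WT range.

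H19 carries the hairpin of miR-675 within the gene, as the RefSeq table for GRCm38.p6 places it. Its mature forms are shown because H19 is the most abundant of the 42 transcripts, with the seed (bases 2 to 8) in capitals. Mature miRNAs were not measured in these libraries.
mmu-miR-675-5p: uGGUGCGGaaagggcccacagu
mmu-miR-675-3p: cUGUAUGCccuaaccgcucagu

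**Figure D2:**
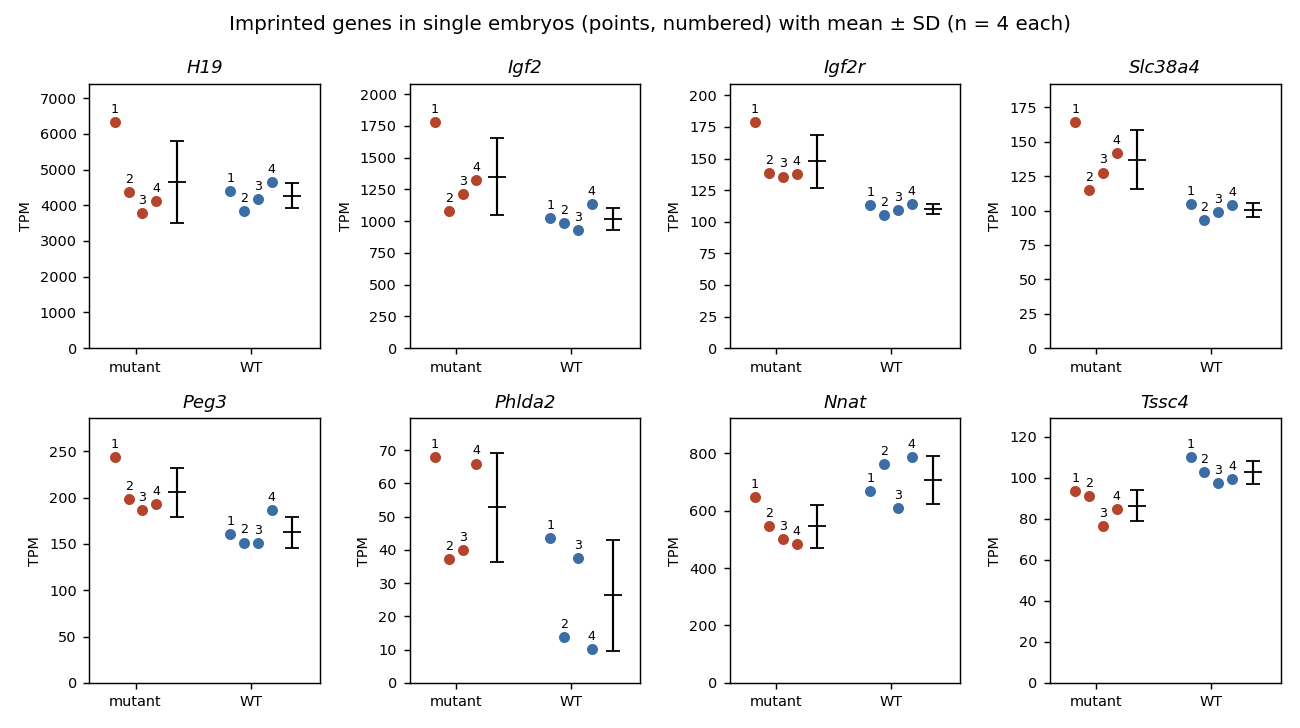
TPM (y axis, from 0) of 8 imprinted genes in each embryo (points, numbered as in the labels), mutants in red and WT in blue, with the mean ± SD (n = 4 each) beside them. Igf2r, Slc38a4 and Peg3 lie wholly above WT and Tssc4 wholly below it, mutant 1 is the highest mutant in all 8 panels, and Phlda2 separates WT 1 and 3 from WT 2 and 4.

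The receptor of Igf2 showed the smallest p of the set. Igf2r (chromosome 17, 12682406 to 12769664), used from the mother's copy in mouse, carries Igf2 to the lysosome and so removes it. It was at 179, 139, 136 and 138 TPM in mutants 1 to 4, against 113, 105, 109 and 114 TPM in WT 1 to 4. Every mutant lay above every WT embryo, and the WT embryos lay close together, while mutant 1 stood above the other mutants. The means were 148 ± 20.7 TPM in mutants and 110.4 ± 3.97 TPM in WT (SD, n = 4 each), a log2 fold change of 0.41 ± 0.09 (standard error) with an interval of 0.21 to 0.60 (limma adjusted p = 0.281; exact permutation p = 0.0286). Without mutant 1 it was 0.31 and without mutants 1 and 2 it was also 0.31, where it passed the threshold (limma adjusted p = 0.00571, against up to 0.564 in the other settings). The ratio of Igf2 to Igf2r TPM was 9.96, 7.77, 8.95 and 9.62 in mutants 1 to 4, against 9.04, 9.39, 8.52 and 9.95 in WT 1 to 4. These ranges overlapped, with mutant 2 lowest.

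Airn (chromosome 17, 12741311 to 12860136), a non-coding RNA made from the father's copy from within Igf2r in the opposite direction, silences Igf2r on that copy. It was at 4.32, 3.75, 1.92 and 2.06 TPM in mutants 1 to 4, against 3.10, 2.71, 3.19 and 3.31 TPM in WT 1 to 4. Mutants 1 and 2 were above every WT embryo and mutants 3 and 4 below every one, and the log2 fold change was -0.07 (limma adjusted p = 0.879). The ratio of Igf2r to Airn TPM was 41.4, 37.0, 70.8 and 67.1 in mutants 1 to 4, against 36.5, 38.8, 34.3 and 34.4 in WT 1 to 4. Mutants 3 and 4 were far above the rest, and mutant 1 was also above every WT embryo. Airn and Igf2r share 28354 bases of gene body, and since no source here says whether counting used strand, reads from their overlap cannot be assigned with certainty. Slc22a3, an organic cation transporter of the same cluster, was not tested, at 0.489 to 1.15 TPM in mutants and 0.251 to 0.850 TPM in WT.

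Slc38a4 (chromosome 15, 96994820 to 97055956), an amino acid transporter used from the father's copy and prominent in placenta and liver, was at 164, 115, 128 and 142 TPM in mutants 1 to 4, against 104, 93.4, 99.05 and 104 TPM in WT 1 to 4. All mutants lay above all WT embryos. The log2 fold change was 0.44 ± 0.10 (standard error), with an interval of 0.22 to 0.66 (limma adjusted p = 0.281; exact permutation p = 0.0286). It was 0.35 without mutant 1. WT 3, which had 346 TPM of yolk sac markers against 59.0 to 85.0 TPM in the other WT embryos, was at 99.1 TPM of Slc38a4 and 109 TPM of Igf2r, within the range of the other WT embryos. This is 1 library. With the yolk sac score in the fit, the log2 fold change was 0.41 for Slc38a4 and 0.28 for Igf2r, the lowest for Igf2r in any setting tried. The part of yolk sac tissue in the differences of Slc38a4 and Igf2r was not tested.

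The promoters of these genes are shown because Igf2r, Slc38a4 and Peg3 were the non-overlapping higher genes with the smallest p. Each window is the 300 bases around a RefSeq start (GRCm38.p6), most of them before it, in the gene's own direction, with every CG in capitals, the pair of bases that carries DNA methylation in imprinting. They held 34, 5 and 13 CG, and 7.48, 61.7 and 38.5% of all genes' first windows held at least as many, so genes with similar fold changes had unlike windows.
Igf2r, chr17:12769657-12769956, minus strand: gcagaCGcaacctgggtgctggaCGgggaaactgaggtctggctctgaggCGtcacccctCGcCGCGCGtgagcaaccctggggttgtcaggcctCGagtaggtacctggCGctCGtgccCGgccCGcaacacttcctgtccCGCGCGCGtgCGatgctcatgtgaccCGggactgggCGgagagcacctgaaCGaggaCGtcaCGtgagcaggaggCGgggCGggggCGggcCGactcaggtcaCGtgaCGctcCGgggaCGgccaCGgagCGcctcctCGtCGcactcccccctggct
Slc38a4, chr15:97055907-97056206, minus strand: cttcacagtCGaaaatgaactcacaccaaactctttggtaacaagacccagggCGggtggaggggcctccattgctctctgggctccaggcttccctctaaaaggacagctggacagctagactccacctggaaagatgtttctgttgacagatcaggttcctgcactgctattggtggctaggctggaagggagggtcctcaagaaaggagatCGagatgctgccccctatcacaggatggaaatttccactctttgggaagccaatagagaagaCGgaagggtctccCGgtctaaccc
Peg3, chr7:6730370-6730669, minus strand: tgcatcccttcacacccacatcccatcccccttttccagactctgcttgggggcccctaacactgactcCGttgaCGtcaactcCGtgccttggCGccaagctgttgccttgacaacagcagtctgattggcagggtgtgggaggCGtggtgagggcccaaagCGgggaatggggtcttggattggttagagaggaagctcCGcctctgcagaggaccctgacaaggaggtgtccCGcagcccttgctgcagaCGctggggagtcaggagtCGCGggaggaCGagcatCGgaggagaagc

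Promoter windows were given for 34 of the 42 genes. Over the first window of each, the median was 14 CG against 7 over the first windows of 27025 genes, and 70.6% of the imprinted genes held at least 10 against 43.9% of all. The hexamer TGCCGC, read on both strands (GCGGCA on the other) and bound by the imprint-protecting factor Zfp57 when methylated, was in 7 of 34 windows (20.6%), against 11.6% of all genes' first windows. These are counts of letters in a window and say nothing of methylation or binding in these embryos.

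The Peg3 cluster on chromosome 7 holds zinc finger genes. Peg3 (chromosome 7, 6703892 to 6730431), a zinc finger factor used from the father's copy, was at 244, 198.6, 186.8 and 192.7 TPM in mutants 1 to 4, against 161, 151.5, 150.9 and 186.6 TPM in WT 1 to 4. The groups did not overlap, but by a margin of 186.8 TPM in mutant 3 against 186.6 TPM in WT 4. The log2 fold change was 0.33 ± 0.10 (standard error; limma adjusted p = 0.281; exact permutation p = 0.0286). Zim1, a zinc finger gene used from the mother's copy, was at 28.8, 15.3, 11.8 and 9.56 TPM in mutants 1 to 4, against 10.9, 13.4, 10.04 and 16.4 TPM in WT 1 to 4. Mutant 1 stood above the other 7 embryos, and the log2 fold change of 0.25 turned to -0.05 without it. Usp29, a member of the deubiquitinase family that starts beside Peg3 in the opposite direction (their windows share 263 bases), was at 4.57 ± 1.05 TPM in mutants and 4.43 ± 0.556 TPM in WT (SD, n = 4 each), a log2 fold change of 0.02 that took the other sign in 5 of 17 settings. The ratio of Peg3 to Usp29 TPM was 40.1, 44.4, 48.2 and 50.0 in mutants 1 to 4, against 35.9, 35.0, 39.9 and 36.4 in WT 1 to 4, higher in every mutant than in any WT embryo. The margin was small, 40.13 in mutant 1 against 39.91 in WT 3. Ranges of the Peg10 to Sgce ratio did not overlap either, at 48.5 to 57.04 in mutants and 39.9 to 47.5 in WT. Neither did those of Nnat to Blcap, at 12.87 to 15.17 in mutants and 15.18 to 17.85 in WT.

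In the Kcnq1 cluster (chromosome 7, 142966829 to 143503150), genes used from the mother's copy surround the non-coding Kcnq1ot1 of the father's copy. Cdkn1c, which encodes an inhibitor of cyclin-dependent kinases, was at 381, 281, 297 and 273 TPM in mutants 1 to 4, against 273, 314, 263 and 344 TPM in WT 1 to 4. The groups overlapped throughout, and the log2 fold change of 0.04 (limma adjusted p = 0.888) changed sign without mutant 1, WT 1 or WT 3. Tssc4, which takes part in spliceosome assembly in human cells, was at 93.3, 90.9, 76.5 and 84.5 TPM in mutants 1 to 4, against 110.2, 103, 97.6 and 99.5 TPM in WT 1 to 4. Every mutant lay below every WT embryo, with a log2 fold change of -0.25 ± 0.07 (standard error; limma adjusted p = 0.281; exact permutation p = 0.0286).

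Phlda2, which restrains growth of the placenta, had the largest log2 fold change of the 39 genes, 1.16 ± 0.43 (standard error; limma adjusted p = 0.324; exact permutation p = 0.143). It was at 68.02, 37.1, 40.1 and 66 TPM in mutants 1 to 4, against 43.6, 13.9, 37.5 and 10.3 TPM in WT 1 to 4. The WT embryos split, with WT 1 and 3 within the mutants' range or next to it and WT 2 and 4 far below. The trophoblast and decidua markers were ordered alike in WT, at 27.9 and 26.8 TPM in WT 1 and 3 and 8.49 TPM in each of WT 2 and 4, but not in mutants, where mutant 4 had 66 TPM of Phlda2 with 17.5 TPM of markers and mutant 2 had 37.1 TPM with 333 TPM. The part of these markers in the result was not tested.

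Slc22a18, a membrane transporter next to Phlda2, was at 2.83, 2.14, 1.56 and 1.54 TPM in mutants 1 to 4, against 1.38, 0.792, 1.47 and 0.493 TPM in WT 1 to 4. The groups did not overlap (log2 fold change 0.58 ± 0.20, standard error; limma adjusted p = 0.313; exact permutation p = 0.0286), and WT 2 and 4 were again the lowest. The log2 fold change was 0.13 with the yolk sac score in the fit and 0.97 with a pseudocount of 0.1. It rested on few reads, 16 to 90 reads per library. Ascl2, a transcription factor needed by trophoblast, was not tested: it was at 0.388 to 0.895 TPM in mutants and 0.232 to 0.589 TPM in WT (7 to 29 reads). Kcnq1ot1 was not tested either, at 0.163, 0.212, 0.0926 and 0.102 TPM in mutants 1 to 4, against 0.156, 0.112, 0.156 and 0.203 TPM in WT 1 to 4, with mutants 3 and 4 lowest.

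**Figure D3:**
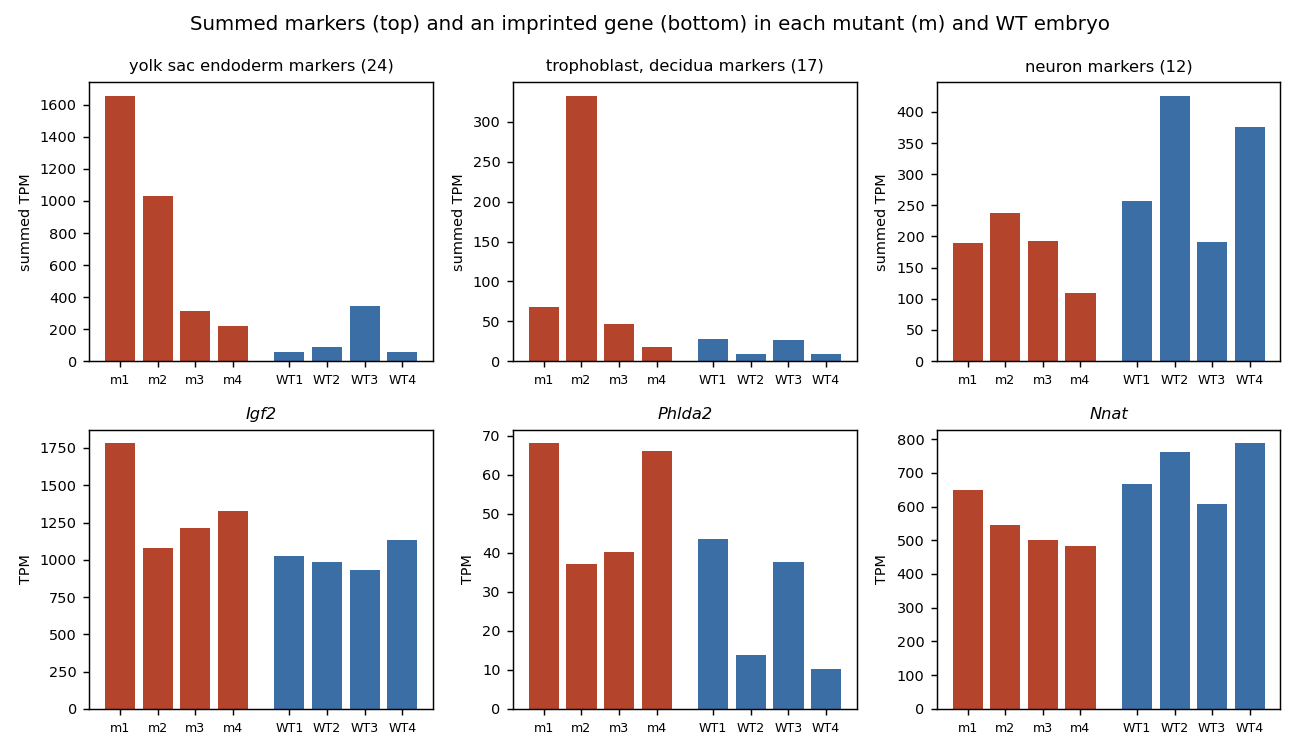
Summed TPM of a marker list in each embryo (top row) above the TPM of an imprinted gene (bottom row), mutants m1 to m4 in red and WT in blue, bars from 0. Yolk sac markers are highest in mutants 1 and 2 while Igf2 is highest in mutants 1 and 4, Phlda2 and the trophoblast markers are both higher in WT 1 and 3 than in WT 2 and 4, and Nnat and the neuron markers are both higher in WT 2 and 4 than in WT 1 and 3.

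The Dlk1-Dio3 cluster on chromosome 12 (109452823 to 110281097) holds coding genes of the father's copy and a chain of non-coding RNAs of the mother's copy, Meg3, Rian and Mirg, all read in the same direction. In mutants 3 and 4 the 3 non-coding RNAs were all far below the other 6 embryos. Meg3 (chromosome 12, 109541001 to 109571726), the first of the chain, was at 28.6, 23.2, 4.998 and 7.59 TPM in mutants 1 to 4, against 22.96, 18, 16.9 and 21.6 TPM in WT 1 to 4. Rian, which hosts small nucleolar RNAs, was at 46.5, 34.7, 17.7 and 16.8 TPM in mutants 1 to 4, against 39.2, 33.8, 33.8 and 40.1 TPM in WT 1 to 4. Mirg, which hosts many miRNAs, was at 8.17, 7.12, 1.99 and 2.17 TPM in mutants 1 to 4, against 7.69, 5.90, 5.90 and 7.46 TPM in WT 1 to 4. Relative to the WT mean, Meg3 was at 0.252 and 0.382, Rian at 0.482 and 0.457, and Mirg at 0.295 and 0.322 in mutants 3 and 4, while mutants 1 and 2 lay at 0.945 to 1.44 for the 3 RNAs.

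As groups, the genotypes did not differ beyond this spread. The log2 fold changes were -0.58 ± 0.46 (standard error) for Meg3, -0.46 ± 0.29 (standard error) for Rian and -0.58 ± 0.36 (standard error) for Mirg, with limma adjusted p of 0.556, 0.469 and 0.465. Without mutants 3 and 4 they were 0.37, 0.13 and 0.17, and without mutants 1 and 2 they were -1.53, -1.04 and -1.32, with limma adjusted p of 0.00174, 0.000924 and 0.00121 (up to 0.882, 0.756 and 0.757 in the other settings). Malat1 and Neat1, non-coding RNAs outside the list, were low in the same libraries, and both were named after their values were seen. Malat1 was at 22.4, 38.7, 10.1 and 11.4 TPM in mutants 1 to 4, against 18.7 to 29.2 TPM in WT. Neat1 was at 1.02, 0.911, 0.0627 and 0.0885 TPM in mutants 1 to 4, against 0.349 to 0.493 TPM in WT. The mitochondrial mt-Nd6 was at 27.9, 32.7, 4.06 and 10.8 TPM in mutants 1 to 4, against 32.4 to 36.2 TPM in WT, whereas mt-Nd4, another mitochondrial transcript, was at 2341, 2697, 2341 and 2641 TPM in mutants 1 to 4, against 1595 to 1893 TPM in WT. The level of mt-Nd4 was thus not low in mutants 3 and 4, and both mitochondrial genes were named after their values were seen. The part of this difference between libraries in the 3 values was not tested, and library and embryo cannot be told apart.

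The coding genes of the same chromosome stretch did not share this pattern. Dlk1, a membrane protein related to Notch ligands that holds back differentiation, was at 259.7, 165, 178 and 140 TPM in mutants 1 to 4, against 189, 181, 160.1 and 227 TPM in WT 1 to 4. Mutant 3 lay in the WT range, mutant 4 was the lowest embryo and mutant 1 the highest (log2 fold change -0.06 ± 0.17, standard error; limma adjusted p = 0.897). The ratio of Meg3 to Dlk1 TPM was 0.110, 0.141, 0.0281 and 0.0543 in mutants 1 to 4, against 0.121, 0.0994, 0.106 and 0.0948 in WT 1 to 4. Dio3, the enzyme that inactivates thyroid hormone, was at 4.48, 7.42, 6.84 and 4.84 TPM in mutants 1 to 4, against 4.36, 4.64, 3.84 and 3.98 TPM in WT 1 to 4. Mutants 2, 3 and 4 exceeded all WT embryos and mutant 1 did not (log2 fold change 0.38 ± 0.15, standard error; limma adjusted p = 0.335; exact permutation p = 0.0571).

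Rtl1, a retrotransposon-derived protein of placental vessels, was at 1.38 ± 0.197 TPM in mutants and 1.24 ± 0.0863 TPM in WT (SD, n = 4 each; log2 fold change 0.09), on 133 to 194 reads per library. Rtl1 lies between Meg3 and Rian on the opposite strand, and the RefSeq table places 6 miRNA hairpins antisense to it. Mirg holds 14 hairpins, Rian 3 and Meg3 1 on their own strand. Among the mature miRNAs inside Meg3, Rian and Mirg, the only seed shared by more than 1 miRNA was that of miR-453 and miR-496a-5p, both inside Mirg. These are shown, with seeds in capitals, beside a miRNA from Rian and another from the opposite strand of Rtl1, as the small RNAs this chain is known for. None of them was measured here.
mmu-miR-453: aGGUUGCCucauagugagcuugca
mmu-miR-496a-5p: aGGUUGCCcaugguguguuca
mmu-miR-370-3p: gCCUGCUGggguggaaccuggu
mmu-miR-127-3p: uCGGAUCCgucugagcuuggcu

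**Figure D4:**
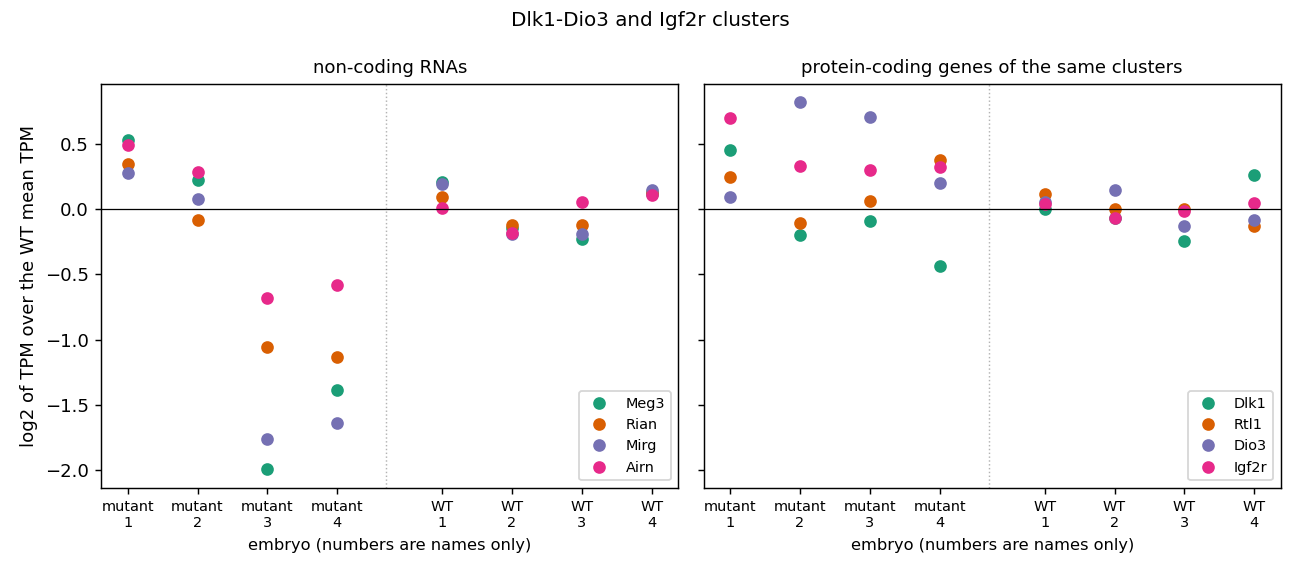
Log2 of TPM over the WT mean TPM (y axis) in each embryo (x axis, mutants left of WT) for 4 non-coding RNAs (left panel) and 4 coding genes of the same clusters (right panel). Meg3, Rian, Mirg and Airn are all low in mutants 3 and 4 and at or above the WT level in mutants 1 and 2 except Rian in mutant 2, whereas Dlk1, Rtl1, Dio3 and Igf2r are not low in mutant 3.

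Peg13, a non-coding RNA made from the father's copy inside Trappc9, was at 20, 23.6, 19.6 and 26.1 TPM in mutants 1 to 4, against 20.96, 24.6, 21.9 and 21.3 TPM in WT 1 to 4. The log2 fold change was 0.00 with a 95% confidence interval of -0.22 to 0.23, and mutant 4, low in Meg3, had the highest value. Of the 6 tested non-coding RNAs 2 had a log2 fold change above 0, with a median of -0.26, against 20 of 33 coding genes with a median of 0.03. All 6 had their lowest value in mutant 3 or 4, as did 18 of the 33 coding genes and 55.7% of all tested genes. Meg3, Rian and Mirg among the 6 belong to the same chain. The margin was small for H19, 3793 TPM in mutant 3 against 3831 TPM in WT 2. It was small for Peg13 too, 19.6 TPM in mutant 3 against 20 TPM in mutant 1.

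In the Snrpn cluster of chromosome 7, the mouse counterpart of the human Prader-Willi region, all 5 genes are used from the father's copy. Snrpn, a spliceosome protein, was at 112, 104, 99.5 and 125 TPM in mutants 1 to 4, against 103, 116, 107 and 104 TPM in WT 1 to 4. Ndn, which encodes necdin and restrains proliferation of neurons, was at 120.5, 73.3, 89.1 and 117 TPM in mutants 1 to 4, against 115, 87.2, 100.1 and 85.1 TPM in WT 1 to 4. For both the groups overlapped, with log2 fold changes of 0.02 ± 0.07 (standard error) and 0.03 ± 0.16 (standard error). Mkrn3, a ring finger protein linked to the timing of puberty, was at 8.82, 9.46, 7.48 and 5.94 TPM in mutants 1 to 4, against 12.2, 11.1, 9.71 and 10.4 TPM in WT 1 to 4. All mutants lay below all WT embryos (log2 fold change -0.42 ± 0.14, standard error; limma adjusted p = 0.3001; exact permutation p = 0.0286). Magel2, which acts in endosomal protein sorting, had a log2 fold change of -0.34 ± 0.17 (standard error) and Peg12 of -0.18 ± 0.14 (standard error; limma adjusted p = 0.392 and 0.566).

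Nnat, a small membrane protein of neural tissue used from the father's copy, was at 648, 546, 502 and 482 TPM in mutants 1 to 4, against 667, 763, 608 and 787 TPM in WT 1 to 4. Mutant 1 lay above WT 3 and the other mutants lay below every WT embryo (log2 fold change -0.38 ± 0.11, standard error, interval -0.62 to -0.13; limma adjusted p = 0.281; exact permutation p = 0.0571). The 12 neuron markers summed to 189, 237, 192 and 109 TPM in mutants 1 to 4, against 257, 426, 192 and 376 TPM in WT 1 to 4, and all 12 had a log2 fold change below 0, with a median of -0.71. WT 2 and 4 were highest for both Nnat and the markers, and the part of the markers in the result was not tested. Blcap, in whose intron Nnat lies in the opposite direction, was at 42.7, 42.4, 37.2 and 37 TPM in mutants 1 to 4, against 43.4, 42.7, 40.1 and 44.3 TPM in WT 1 to 4, a log2 fold change of -0.10 ± 0.07 (standard error; limma adjusted p = 0.501). Nnat and Blcap share 2445 bases of gene body, so reads from their overlap cannot be assigned with certainty either.

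Both genes of the Peg10-Sgce pair on chromosome 6 start beside each other and are used from the father's copy. Peg10, a retrotransposon-derived protein needed for the placenta, was at 544, 524, 414 and 463 TPM in mutants 1 to 4, against 444, 356, 423 and 422 TPM in WT 1 to 4 (log2 fold change 0.24 ± 0.10, standard error; limma adjusted p = 0.344). Mutant 3 was lower than 3 of the WT embryos, and the log2 fold change of Peg10 was 0.07 with the yolk sac score in the fit (limma adjusted p = 0.781). Sgce, epsilon-sarcoglycan, was at 11.2, 9.18, 8.20 and 9.07 TPM in mutants 1 to 4, against 10.8, 8.92, 8.91 and 9.18 TPM in WT 1 to 4, with a log2 fold change of -0.01 that turned positive with median-ratio scaling. Mest, a hydrolase-like protein of mesoderm, was at 1853, 1592, 1590 and 1590 TPM in mutants 1 to 4, against 1588, 1621, 1531 and 1601 TPM in WT 1 to 4, so that 7 embryos lay within 1531 to 1621 TPM and mutant 1 above them. Its neighbour Copg2, a coatomer subunit, was at 49.3, 49.7, 44.9 and 47.4 TPM in mutants 1 to 4, against 48.3, 54.2, 50.05 and 48.4 TPM in WT 1 to 4. The log2 fold changes were 0.06 ± 0.06 (standard error) for Mest and -0.07 ± 0.06 (standard error) for Copg2, and the genes overlap by 912 bases at their ends.

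For each of the remaining genes the 95% confidence interval of the difference included 0. Gnas, whose product raises cyclic AMP and thereby acts as a brake on Hedgehog signalling, was at 318 ± 24.04 TPM in mutants and 315 ± 12.5 TPM in WT (SD, n = 4 each), a log2 fold change of 0.01 ± 0.06 (standard error) with an interval of -0.12 to 0.14. Grb10, an adaptor that dampens insulin and Igf receptors, was at 543 ± 36.7 TPM in mutants and 549.6 ± 15.7 TPM in WT, with an interval of -0.14 to 0.10. The value for Grb10, -0.02, turned positive with median-ratio scaling. H13, a signal peptide peptidase, had the interval -0.08 to 0.16 and Impact, an inhibitor of the kinase Gcn2, -0.05 to 0.26. Plagl1, a zinc finger factor, was at 86.7 ± 23.3 TPM in mutants and 80.1 ± 8.56 TPM in WT, and its log2 fold change of 0.08 changed sign without mutant 1. Dcn, the proteoglycan decorin, varied most among these, at 2.46 to 10.9 TPM in mutants and 3.52 to 8.10 TPM in WT. Nap1l5, of the nucleosome assembly family, was at 2.70, 3.76, 2.12 and 2.62 TPM in mutants 1 to 4, against 2.89, 4.99, 3.69 and 3.78 TPM in WT 1 to 4 (log2 fold change -0.35 ± 0.17, standard error; limma adjusted p = 0.389). Zrsr1, a splicing factor retrogene, had a log2 fold change of -0.12 and Inpp5f, a phosphoinositide phosphatase, of -0.15.

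By parental copy, classes were compared by their counts alone. Of the coding genes listed as used from the mother's copy 8 were tested, 6 with a log2 fold change above 0 and a median of 0.17. Of those listed as used from the father's copy 20 were tested, 12 above 0 with a median of 0.03. Whether each gene was so used in these whole embryos was not measured. Genes of the same cluster share control regions, so the members of a class are not all independent of one another.

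Mutant 1 held the highest value of 25 of the 39 genes (64.1%), against 27.0% of all tested genes. The median over the 39 genes of each embryo's log2(TPM + 1) minus the WT mean was 0.24, 0.04, -0.11 and -0.08 in mutants 1 to 4, against 0.01, 0.00, -0.05 and 0.02 in WT 1 to 4. Mutant 1 also had the highest sum of 12 heart muscle genes, 4250 TPM, where mutants 2 to 4 had 2080 to 2660 TPM and WT 1401 to 2029 TPM, and the highest sum of yolk sac markers. The heart muscle sum of every mutant thus lay above that of every WT embryo. Of these 12 genes, 11 had a log2 fold change above 0 and none was called. An unadjusted limma p under 0.05 was reached by 8 of them, higher in mutants, beside 5.55% of all tested genes. The part of these tissues in the values of mutant 1 was not tested.

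The genes whose log2(TPM + 1) over the 8 embryos was most like that of H19 were Crybg1, Igf2os, Ppl, Pycard and Rem1 (Pearson r 0.95 to 0.99, n = 8). Those most like Igf2 were Adamts17, Cd248, Bmp5, Ptges3l and Creb3l2 (r 0.98). Igf2os is transcribed antisense to Igf2, and where strand was not used, reads of these overlapping genes would be mixed. Among the imprinted genes, Slc38a4 (r = 0.95), Igf2r (0.92) and Peg3 (0.91) were the most like Igf2. Each of these correlations includes the high value of mutant 1, and the values describe these embryos only. The rank correlation (Spearman) was 0.83 to 0.95 for the genes most like H19 and 0.90 to 0.98 for those most like Igf2. With Igf2 it was 0.90 for Slc38a4, 0.83 for Igf2r and 0.86 for Peg3.

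No gene of 3 related lists was called. Of 41 further imprinted genes 28 were tested, 16 with a log2 fold change above 0 and 12 below, and none was called (smallest limma adjusted p = 0.299). Nap1l4, a histone chaperone beside the Kcnq1 cluster, was at 268 ± 17.97 TPM in mutants and 301 ± 8.16 TPM in WT (SD, n = 4 each), and Mcts2, in an intron of H13, at 43.3 ± 2.55 TPM in mutants and 48.5 ± 1.26 TPM in WT. Ampd3, an AMP deaminase, was at 2.01 ± 1.21 TPM in mutants and 0.854 ± 0.187 TPM in WT. Of 26 genes that set or keep imprints 22 were tested, 5 above 0 and 17 below, none called (smallest adjusted p = 0.331). Ezh2, the methyltransferase of the Polycomb complex, was at 92.7 ± 12.8 TPM in mutants and 108 ± 5.43 TPM in WT.

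Of 23 genes of Igf signalling 20 were tested, 16 above 0 and 4 below, none called (smallest adjusted p = 0.363). Igf2bp1, which binds Igf2 mRNA, was at 172 ± 16.5 TPM in mutants and 153 ± 7.03 TPM in WT (SD, n = 4 each; log2 fold change 0.16 ± 0.07, SE). Igfbp4, a binding protein that holds Igf in the fluid outside cells, was at 325 ± 31.4 TPM in mutants and 291.5 ± 10 TPM in WT. The median log2 fold change was 0.09 for this list, 0.01 for the further imprinted genes and -0.09 for the imprint factors, beside -0.04 over all tested genes.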

How the data were processed

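The authors deposited a table of TPM per gene symbol for 8 embryos. The labels name TruSeq RNA Sample Prep v2 libraries and a NovaSeq instrument, and per the submitters' processing notes the build was GRCm38 (mm10). The sources used here do not give the aligner, the counter, the annotation or the strandedness. Every column was matched by name. Genes with at least 1 TPM in at least 4 embryos were compared by limma 3.58.1 (R 4.3.3) on log2(TPM + 1) with the trend option, a genotype term alone and two-sided tests, with Benjamini-Hochberg adjustment over all 13596 genes and a threshold of 0.05. Single genes were also compared by the two-sided exact permutation test over 70 assignments. Embryos are taken as separate animals, but litters are unknown, so p-values treat them as independent.

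Whole reads were recovered from the steps between TPM values with merged exon lengths of GENCODE M21: of values under 100 reads, 97.6 to 97.8% fell within 0.02 of a whole number, over 37957 symbols. The authors' own gene lengths are unknown here, so reads are estimates.

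Values of every embryo are given for the 2 most abundant genes of each cluster with at least 2 of the 42 genes, non-coding RNAs of at least 1 TPM, genes with an unadjusted p under 0.05 and unclustered genes with an absolute log2 fold change of at least 0.3. From each further list up to 3 genes of smallest p were eligible for naming. The 5 named genes most like H19 or Igf2 leave out Gm and Rik symbols. The members and lists were chosen with earlier results of these data known, and the parental copies come from general knowledge. Alternatives were another pseudocount (0.1), no filter, median-ratio scaling, no trend, array weights, the yolk sac score as a covariate, the replicate number as a block, leaving out each embryo, mutants 1 and 2 or mutants 3 and 4, and the permutation test. The fit was also run on simulated data with independent noise for each gene. These lack shifts that many genes share within an embryo, so that run cannot show how the fit behaves with such shifts.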

Additional observations from a re-analysis of the deposited data

Results flagged for a closer look

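In 4 of 84 groups of 4 embryos, 1 embryo lay far from the other 3 relative to the group's range, and chance alone gives about 1 in 20. Mutant 1 was that embryo in 3 of them, with 1853 TPM of Mest, 178.9 TPM of Igf2r and 353.6 TPM of Gnas. The other was WT 1 for Sgce, at 10.79 TPM.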

How the results depend on the processing

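No imprinted gene was called under 17 of the 18 alternatives, and 13 were called without mutants 1 and 2, the embryos with the most yolk sac transcripts, where limma called 24.8% of all genes. These were Igf2, Igf2r and Slc38a4 higher (2.07% of all genes) and Tssc4, Meg3, Rian, Mirg, Airn, Mkrn3, Nnat, Blcap, Zrsr1 and Inpp5f lower (22.7%). That fit rests on mutants 3 and 4, whose libraries stood apart, and the cause of the gain was not tested. The count at an unadjusted p under 0.05, 11 with all embryos, was 8 to 12 without single embryos, 17 without mutants 1 and 2 and 6 by the exact permutation test, whose steps are coarse. It was 10 when the yolk sac score was a covariate, but 5 of these were among the original 11. Of the 39 genes, 19 kept the sign of their log2 fold change in all settings, among them the 11, and 20 did not, none of them called with all embryos. Without single embryos the log2 fold change ran from -0.057 to 0.19 for H19, from -0.066 to 0.11 for Cdkn1c, from -0.23 to 0.067 for Dlk1, from -0.097 to 0.085 for Usp29, from -0.049 to 0.45 for Zim1, from -0.088 to 0.050 for Sgce, from -0.22 to 0.064 for Airn, from -0.071 to 0.17 for Ndn, from -0.037 to 0.071 for Snrpn, from -0.041 to 0.035 for Gnas, from -0.077 to 0.23 for Plagl1, from -0.050 to 0.013 for Grb10, from -0.074 to 0.058 for Peg13 and from -0.14 to 0.45 for Dcn. With median-ratio scaling it was 0.036 for Sgce and 0.030 for Grb10. With array weights it was -0.0042 for H19, -0.024 for Cdkn1c, -0.061 for Usp29, -0.018 for Gnas, -0.056 for Plagl1 and -0.18 for Dcn. With the yolk sac covariate it was -0.14 for H19, -0.031 for Cdkn1c, -0.11 for Usp29, -0.23 for Zim1, 0.064 for Peg12, -0.035 for Gnas, -0.27 for Plagl1, -0.021 for Impact and -0.41 for Dcn. Without mutants 3 and 4 it was 0.37 for Meg3, 0.13 for Rian, 0.17 for Mirg, 0.14 for Dlk1, 0.097 for Sgce, 0.30 for Airn, -0.032 for Ndn, 0.063 for Grb10, 0.12 for Zrsr1 and -0.026 for Peg13. Without mutants 1 and 2 it was -0.11 for H19, -0.061 for Cdkn1c, -0.15 for Usp29, -0.21 for Zim1, -0.051 for Gnas, -0.17 for Plagl1 and -0.52 for Dcn. The median log2 fold change, 0.02, was -0.07 to 0.06 without single embryos, -0.11 with the covariate, -0.11 without mutants 1 and 2 and 0.13 without mutants 3 and 4. With the covariate the median of all genes shifted to -0.12 and without mutants 1 and 2 to -0.11. The labels do not say that replicate numbers pair embryos. Same-numbered embryos correlated at -0.06, 0.04, -0.19 and -0.25 after centring, which cannot show whether any shared a litter. The replicate block gave 0 calls and 13 genes at an unadjusted p under 0.05. Depth limits Slc22a18, Ascl2 and Slc22a3, which rest on 99 reads or fewer per library.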
